A study of Mus musculus with 6 samples.

Results

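The colony-stimulating factors and their receptors were compared between mouse bone marrow-derived macrophages with a conditional knockout of Morrbid and controls. Morrbid is a long non-coding RNA of myeloid cells, and how far it was lost was not examined here. The genes were 10 listed symbols: the ligands Csf1, Kitl and Flt3l, the receptor tyrosine kinases Csf1r, Kit and Flt3, and the cytokine receptor chains Csf2ra, Csf2rb, Csf2rb2 and Csf3r. All 10 were found by symbol among the 16138 genes of the authors' deposited table. They were proposed with the log2 fold changes and q-values of this same comparison in view, so their values here are a description, and no test of the group is given.

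Control cells came from Morrbidfl/fl mice, in which the Morrbid gene is flanked by loxP sites (3 samples). The knockout group (cKO, 3 samples) consisted of cells from Morrbidfl/fl/Lyz2-Cre mice, which carry the same flanked gene and also Cre recombinase under the control of the Lyz2 locus, a gene of macrophages, monocytes and neutrophils. No control mice carried Cre, so Cre, its insertion in Lyz2 and the loss of Morrbid cannot be told apart as sources of a difference. Marrow cells of both genotypes were grown for 7 days with 50 ng/ml M-CSF, the protein encoded by Csf1, so the ligand was supplied to all cultures. The labels used here give no age or sex. They also do not state that each sample came from its own animal, so the p-values reflect the spread among these 6 libraries, part or all of which may be technical.

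M-CSF and its receptor CSF1R drive the survival, growth and differentiation of macrophages. Its relatives KIT and FLT3, which bind stem cell factor and FLT3 ligand, act mainly in progenitors, mast cells and dendritic cells and are usually lost as macrophages mature. GM-CSF signals through a specific alpha chain, CSF2RA, and a shared beta chain, CSF2RB, while G-CSF signals through CSF3R, a receptor best known from neutrophils. In the mouse the beta chain has a second copy, CSF2RB2, which serves interleukin 3 alone.

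The deposited values were 1 log2 fold change of Morrbid cKO over WT, 1 p-value and 1 q-value (a p-value adjusted for multiple testing) per gene. The group named WT in the header was read as the controls. No values of single libraries were analysed here, so sequencing depth is unknown and no value per sample can be shown. A standard error was therefore implied from each ratio and its p-value, assuming a Wald-type test, and it gave the 95% intervals quoted below. Genes with a q under 0.05 in the authors' deposited table were called changed. By that rule 3 of the 10 genes were changed, against 1.72% of all genes: 2 were higher in cKO (0.849% of all genes) and 1 was lower (0.874%). An unadjusted p under 0.05 was reached by the same 3 genes, against 8.84% of all genes. Stricter or other rules called 2 of the 10 at a q under 0.01 (1.02% of all genes), 2 at a q under 0.05 with a log2 fold change of at least 1 in size (0.582%), 3 when q was adjusted over mRNA genes alone (1.71%) or over genes whose implied standard error did not exceed 1 (2.59%), and 0 by Holm's adjustment (0.415%). As the genes were proposed from these values, nothing is read from those shares.

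Csf1, the ligand that defines macrophage growth, fell in cKO cells to 0.449 times the control level (95% interval 0.317 to 0.637), and Kitl, which encodes stem cell factor, rose 2.07-fold (1.37 to 3.14), by the ratios of the authors' deposited table. Csf2ra, the ligand-binding chain of the GM-CSF receptor, rose 1.27-fold (1.13 to 1.43) in the same deposited table. The receptors of both changed ligands, Csf1r and Kit, did not pass the threshold, nor did Flt3l, Flt3, Csf2rb, Csf2rb2 or Csf3r. The changed genes thus belong to 3 different pathways, those of M-CSF, stem cell factor and GM-CSF. Of the 10 ratios, 4 lay above 0 and 6 below (52.3% of all genes lay below 0), with a median of -0.17 on the log2 scale, beside a median of -0.01 over all genes of the authors' deposited table.

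**Figure D1:**
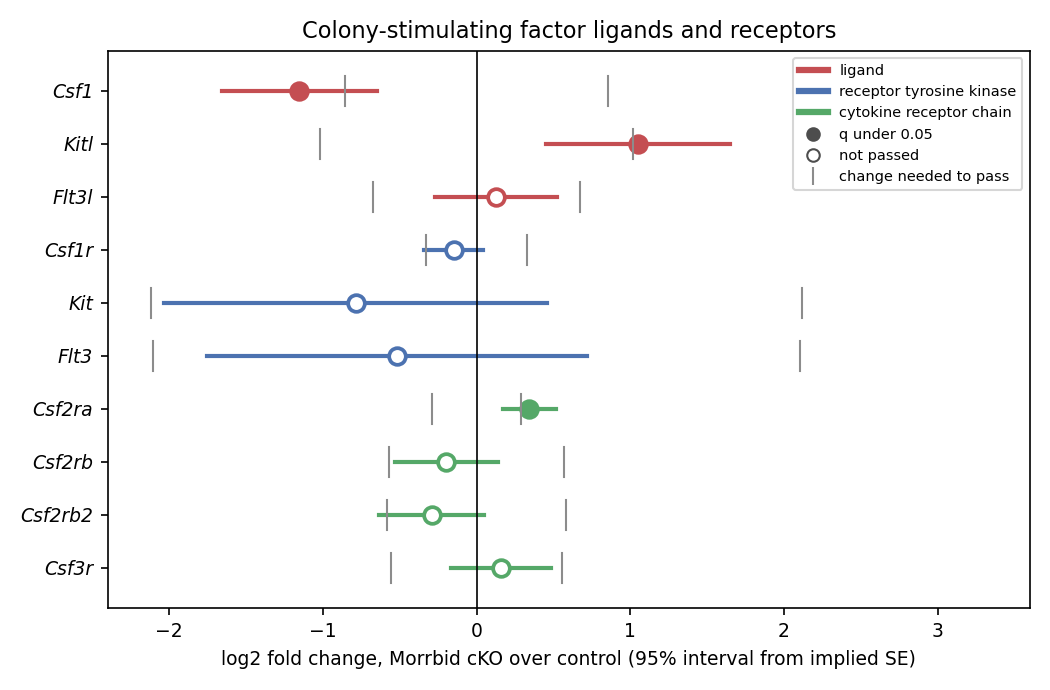
Log2 fold change of the 10 genes, Morrbid cKO over control, grouped by role, with 95% intervals from the implied standard error. Filled points passed a q under 0.05, and grey ticks mark the change each gene would have needed: Csf1, Kitl and Csf2ra lie outside their ticks and the other 7 genes inside.

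Among the ligands, Csf1 (Gene ID 12977) changed by -1.15 log2 units (implied SE 0.26, 95% interval -1.66 to -0.65, q = 0.00127) in the authors' deposited table. It had the 90th smallest p-value of all genes and the 52nd largest decrease among the 141 genes that fell. Kitl (Gene ID 17311) changed by 1.05 log2 units (implied SE 0.30, interval 0.45 to 1.65, q = 0.0377) in the authors' deposited table, the 31st largest increase among the 137 genes that rose. Its change was only just large enough, since at its precision a log2 fold change of 1.02 was needed. The third ligand, Flt3l (Gene ID 14256), which supports dendritic cell development, stood at 0.13 (interval -0.27 to 0.52, q = 0.993) in the authors' deposited table. The interval runs from 0.83 to 1.43 times the control level.

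Csf1 and Kitl are both made by fibroblasts and other stromal cells, which can persist in marrow cultures. Of 16 stromal markers, 15 had ratios below 0, where 52.3% of all genes lay, with a median log2 fold change of -1.69. Of the 16, 2 fell (12.5%, against 1.72% of all genes called) in the authors' deposited table. They were the collagen gene Col5a1 (-1.70, q = 0.000815) and the smooth muscle actin gene Acta2 (-2.06, q = 0.0458) in the authors' deposited table. Csf1 lay on the same side of 0 as 15 of the 16 stromal markers and Kitl on the opposite side. The 1 stromal marker above 0 was the leptin receptor gene Lepr (0.54, implied SE 0.77, q = 0.993), whose interval included 0. Endothelial cells, another source of stem cell factor, had 5 measured markers with a median of 0.60, on the same side as Kitl, in the authors' deposited table. Of these, Pecam1, which encodes an adhesion protein also found on leukocytes, rose (0.81, q = 0.00156), and Kdr, a VEGF receptor, had a ratio of 0.60 (q = 0.567), while Cdh5, the endothelial cadherin, was at -0.27 (q = 0.993), all in the authors' deposited table. The other 2, Tek and Emcn, had implied standard errors of 3.95 and 2.15 and give no direction. The part of stromal cells in the Csf1 value and of endothelial cells in the Kitl value was not tested, and the level of these markers in each group was not analysed here. In bulk samples, fewer cells of a type and less RNA per cell cannot be told apart. Of 12 macrophage markers, 1 rose and 1 fell (16.7% called), with a median of 0.03 in the authors' deposited table. Adgre1, an adhesion receptor typical of mature macrophages, rose (0.44, q = 0.0104) in that deposited table. Lyz2, the lysozyme gene that holds Cre in the cKO group alone, fell (-0.85, q = 4.6e-06) in that deposited table. As a macrophage marker its fall cannot be told apart from the insertion of Cre. The marker lists here and below were written with earlier results of the data known, so nothing is read from their shares.

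**Figure D2:**
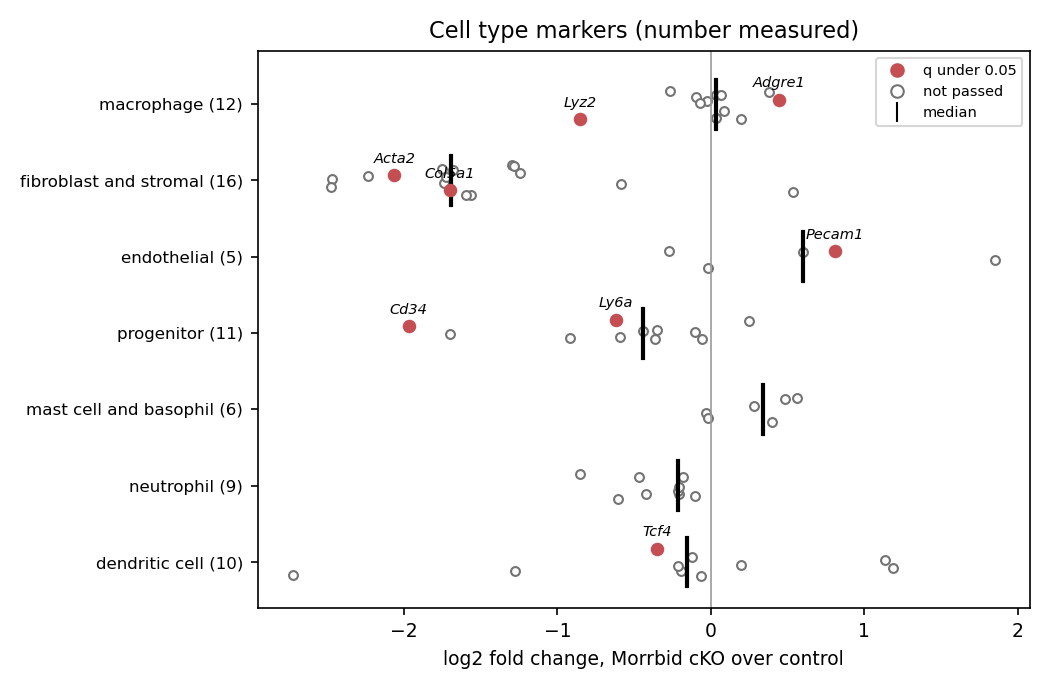
Log2 fold change, cKO over control, of markers of 7 cell types, 1 point per gene, filled and named at q under 0.05, with the median of each list as a bar. The fibroblast and stromal list is centred on -1.69, the endothelial list on 0.60 and the macrophage list on 0.03.

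The upstream sequences of the 3 changed genes are shown because these are the genes whose transcript levels differed. Each runs 5′ to 3′ over the 250 bases before the transcription start of RefSeq's annotation of GRCm38.p6, at chr3:107760470-107760719 on the minus strand for Csf1, chr10:100015571-100015820 on the plus strand for Kitl and chr19:61228419-61228668 on the minus strand for Csf2ra. Capitals mark matches, on either strand, to any of 8 motifs: PU.1 (GAGGAA), C/EBP (TTGCNNAA), AP-1 (TGANTCA), NF-kB (GGGANTTNC), STAT (TTCNNNGAA), E-box (CACGTG), GC box (GGGCGG) and TATA box (TATAAA).
Csf1: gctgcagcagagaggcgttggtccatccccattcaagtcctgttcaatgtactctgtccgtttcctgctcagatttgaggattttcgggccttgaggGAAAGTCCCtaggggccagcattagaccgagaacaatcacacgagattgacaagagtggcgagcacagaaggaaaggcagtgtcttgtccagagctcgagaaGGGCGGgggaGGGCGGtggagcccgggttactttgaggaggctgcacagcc
Kitl: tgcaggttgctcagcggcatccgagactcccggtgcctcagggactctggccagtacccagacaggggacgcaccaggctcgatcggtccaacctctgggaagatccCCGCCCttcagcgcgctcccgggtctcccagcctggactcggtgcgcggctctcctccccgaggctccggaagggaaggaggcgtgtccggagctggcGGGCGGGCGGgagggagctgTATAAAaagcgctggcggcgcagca
Csf2ra: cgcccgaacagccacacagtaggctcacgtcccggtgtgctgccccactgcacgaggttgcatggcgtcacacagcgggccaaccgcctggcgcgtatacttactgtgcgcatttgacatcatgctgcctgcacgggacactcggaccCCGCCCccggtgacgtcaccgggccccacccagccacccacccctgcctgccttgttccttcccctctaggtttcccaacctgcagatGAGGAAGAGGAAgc

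The 3 sequences differed in what they held. The Csf1 stretch had an NF-kB match at positions -153 to -145, counted back from -1 at the base before the start, and 2 GC boxes. An NF-kB match was present in 3.54% of the 32851 upstream stretches of the RefSeq set, and a GC box in 32.7%. The Kitl stretch had a TATA box at -25 to -20, a motif held by 12.4% of stretches, and 3 GC boxes, 2 of which overlap. In Csf2ra, a pair of adjoining PU.1 matches covered -14 to -3, and a PU.1 match was found in 23.3% of stretches. None of the 3 held a C/EBP, AP-1, STAT or E-box match in this window. A GC box was thus the only searched motif present in all 3, and these matches are letters in a sequence, not measured binding sites.

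Sequences were found for 8 of the 10 genes, with 2 starts for Kit. Beyond Csf2ra, a PU.1 match was present upstream of Csf3r, Kit and Csf2rb2. The Csf2rb2 stretch also held a STAT match at -15 to -7, a motif in 7.02% of stretches. Kit, at each of its starts, and Flt3l held a GC box, and Flt3 held none of the 8 motifs.

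The receptor tyrosine kinases all had ratios below 0 and none passed. Csf1r (Gene ID 12978) stood at -0.15 (implied SE 0.098, interval -0.34 to 0.04, q = 0.809) in the authors' deposited table. This was one of the precise values, as only 11.6% of genes had a smaller standard error, and the interval covers 0.789 to 1.03 times the control level. Kit (Gene ID 16590) stood at -0.79 (interval -2.03 to 0.46, q = 0.939) and Flt3 (Gene ID 14255) at -0.52 (interval -1.76 to 0.72, q = 0.993) in the authors' deposited table. Both had an implied standard error near 0.63 to 0.64, so a log2 fold change of about 2.11 or 2.12 would have been needed to pass. A fall of Kit to 0.245 times control and a rise of 1.37-fold both lie within its interval, so its direction was not resolved.

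Set side by side, each ligand and its receptor had these log2 fold changes in the authors' deposited table: Csf1 -1.15 and Csf1r -0.15, Kitl 1.05 and Kit -0.79, Flt3l 0.13 and Flt3 -0.52. The M-CSF pair lay on the same side of 0, and the other pairs on opposite sides, but only Csf1 and Kitl passed. Whether a ligand's change differed from its receptor's was not tested, since both come from the same 6 libraries.

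Progenitors and mast cells are the marrow cells best known for KIT, and dendritic cells and progenitors for FLT3. Of 11 progenitor markers, 10 had ratios below 0 (median -0.44), where 52.3% of all genes lay, and 2 fell (18.2%, against 1.72% of all genes called). These were Cd34, a sialomucin (-1.97, q = 1.4e-11), and Ly6a, the stem cell antigen Sca-1 (-0.62, q = 0.00363), in the authors' deposited table. Only 6 of 10 markers of mast cells and basophils were listed in that table, and 4 of those had implied standard errors above 1. Of 10 dendritic cell markers, 1 fell (10%, against 1.72% of all genes called), the transcription factor Tcf4 (-0.35, q = 0.0102) in the authors' deposited table. Their median was -0.16, with 7 ratios below 0 and 3 above. The 3 above were Ccr7 (1.19, q = 0.319), Siglech (1.13, q = 0.949) and Xcr1 (0.20, q = 0.993), and none of them passed. The part of these cells in the Kit and Flt3 values was not tested.

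Among the cytokine receptor chains, Csf2ra (Gene ID 12982) had the smallest change that passed and the most precise value of the 10 genes. Its log2 fold change was 0.34 (implied SE 0.087, interval 0.17 to 0.51, q = 0.00841) in the authors' deposited table, and only 4.66% of genes had a smaller standard error. It ranked 125th by size among the 137 genes that rose. The shared beta chain Csf2rb (Gene ID 12983) stood at -0.20 (interval -0.53 to 0.14, q = 0.975) and its copy Csf2rb2 (Gene ID 12984) at -0.29 (interval -0.63 to 0.05, q = 0.727) in the authors' deposited table. The alpha chain was therefore higher, while the point estimates of both beta chains were lower and their intervals included 0. The G-CSF receptor Csf3r (Gene ID 12986) stood at 0.16 (interval -0.17 to 0.48, q = 0.993) in the authors' deposited table. All 9 neutrophil markers had ratios below 0 (median -0.21), where 52.3% of all genes lay, and none passed in that deposited table. The point estimate of Csf3r lay above 0, but its interval included 0, so its direction was not resolved. The part of neutrophils in the Csf3r value was not tested.

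**Figure D3:**
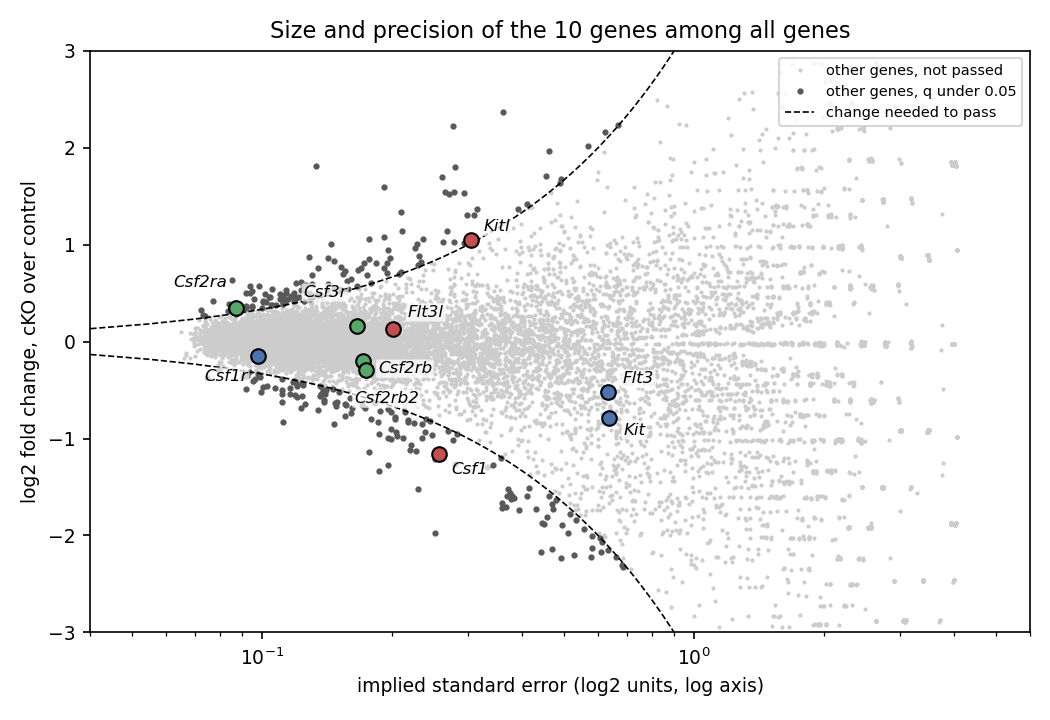
Log2 fold change against implied standard error (log axis) for all genes, with the 10 genes coloured by role as ligands (red), receptor tyrosine kinases (blue) and cytokine receptor chains (green); dashed lines mark the change needed to pass, and 121 genes beyond 3 log2 units are outside the plot. Csf2ra and Csf1r sit at the precise end, at 0.087 and 0.098, and Kit and Flt3 at the imprecise end of the 10, at 0.635 and 0.632.

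The values of Csf2rb and Csf2rb2 are uncertain as separate genes, because their sequences are nearly the same. Their coding sequences in the GENCODE M21 transcripts of GRCm38 (2691 and 2637 bases) matched at 95.3% of 2629 aligned positions, and the longest identical run was 242 bases. A further 70 alignment columns held a gap and are left out of that share. Of all 50-base windows of the Csf2rb coding sequence, 26.0% occurred unchanged in Csf2rb2, and 11.0% of 100-base windows did. A read inside such a window cannot be placed on one of the genes by its sequence alone. The processing notes name RSEM 1.3.1 with no role, and the sources used here do not say how such reads were counted. The stretches below are the 60 coding bases aligned without a gap in which the copies differ most, at 13 positions, marked in capitals. They show a place where reads can be told apart, and stretches with gaps were not compared. They cover coding bases 304 to 363 of Csf2rb and 307 to 366 of Csf2rb2, counted from the start codon.
Csf2rb: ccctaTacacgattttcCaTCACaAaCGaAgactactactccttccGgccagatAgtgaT
Csf2rb2: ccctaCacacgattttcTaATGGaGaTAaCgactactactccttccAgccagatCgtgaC

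Both copies lie next to each other on chromosome 15, with no measured gene between them in the RefSeq order. Isoforms were not resolved either, since the table listed from 2 transcripts (Csf2rb2) to 21 (Csf3r) per gene with 1 ratio for all. For Csf1 and Kitl, whose splice forms give membrane-bound and secreted proteins, the ratio covers 5 and 6 listed transcripts.

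Genes around each of the 10 were compared to see whether a change extended along the chromosome. Among the 85 genes within 5 measured genes on either side, 1 fell and none rose, which is 1.18% against 1.72% of all genes in the authors' deposited table. That gene was Rcn3, a calcium-binding protein of the secretory pathway (-0.80, q = 0.0472 in the authors' deposited table), 4 places from Flt3l. None of the 10 neighbours of Csf1, of the 10 of Kitl or of the 5 of Csf2ra, which is the last measured gene of its chromosome, passed. The neighbours of Csf1 had a median of -0.25, and 3 of them, Slc6a17 (-1.02, implied SE 2.20), Kcnc4 (-0.98, implied SE 4.08) and Gstm2 (-0.98, implied SE 0.52), had ratios near that of Csf1 in the authors' deposited table. At that precision Slc6a17 and Kcnc4 give no direction, and Gstm2 did not pass (q = 0.597). Pdgfrb and Pdgfra, related receptor tyrosine kinase genes that adjoin Csf1r and Kit, stood at -1.28 (q = 0.114) and -1.30 (q = 0.559) in the authors' deposited table. Kitl shares chromosome 10 with Lyz2, the Cre locus. None of the 43 measured genes between them passed, against 1.6% of chromosome 10 and 1.72% of all genes in the authors' deposited table. At shares this low, few or none of 43 genes would pass in any stretch, so nothing is read from this count. The part of the Cre locus in the Kitl value was not tested.

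**Figure D4:**
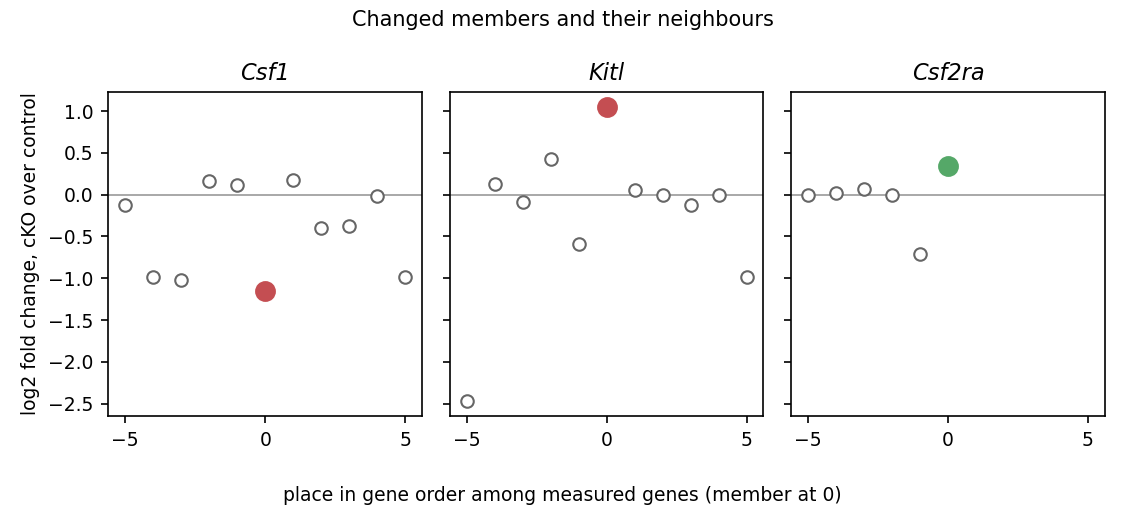
Log2 fold change, cKO over control, of Csf1, Kitl and Csf2ra (filled points at 0) and of up to 5 measured genes on each side in RefSeq gene order (open points), none of which passed. The neighbours run from -1.02 to 0.17 around Csf1 at -1.15, from -2.47 to 0.42 around Kitl at 1.05, and from -0.71 to 0.06 around Csf2ra at 0.34.

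Among other ligands and receptors of the same families, 1 of 12 measured genes fell (8.33%, against 1.72% of all genes) and none rose in the authors' deposited table. It was Pdgfc, a ligand of the PDGF receptors (-0.92, q = 0.0410), and the median of the list was -0.70 in the authors' deposited table, with 5 of the 12 at an implied standard error over 1. Over the other 7 genes the median was -0.48. Pdgfra and Pdgfrb belong to this list and to the stromal markers, whose median was -1.69. This list and the lists below were written with earlier results of the data known, so nothing is read from their shares. Il34, the second ligand of CSF1R, stood at -3.09, Csf2, which encodes GM-CSF, at -0.98, and Csf3, which encodes G-CSF, at 1.83 in the authors' deposited table. Their implied standard errors were 2.11, 4.08 and 3.97, so none of these 3 ratios gives a direction. Il3ra, the alpha chain of the interleukin 3 receptor and a partner of both beta chains, had a ratio of 0.26 (q = 0.292) in the authors' deposited table.

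Genes that act below the receptors showed 1 large single change. Of 26 adaptors, kinases and phosphatases, 1 rose and none fell (3.85%, against 1.72% of all genes). It was Src, a tyrosine kinase recruited to activated CSF1R, with a log2 fold change of 1.01 (implied SE 0.23, q = 0.00171) in the authors' deposited table. The median of the list was 0.11, with 18 of the 26 ratios above 0, beside -0.01 over all genes of the authors' deposited table. Next by p-value were Syk (0.38, q = 0.181), a kinase used by immune receptors, Pik3ap1 (0.25, q = 0.228), an adaptor of phosphoinositide 3-kinase, and Vav1 (0.20, q = 0.416), an exchange factor, and none of them passed in the authors' deposited table. Of 9 Janus kinases and STATs, none passed in the authors' deposited table, with ratios from -0.03 to 0.12, although 7 lay above 0. Jak2, the kinase bound by the beta chain, stood at 0.11 (q = 0.993) and Stat5a, its main target, also at 0.11 (q = 0.993) in the authors' deposited table.

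Genes known to respond to these receptors were grouped in 3 lists, and of their 35 measured genes 2 rose and 1 fell (8.57%, against 1.72% of all genes) in the authors' deposited table. These 3 lists were written with earlier results of the data known, so nothing is read from that share. Of 10 STAT5-induced genes, 1 rose, the survival kinase Pim2 (0.76, q = 0.00780), and the median was 0.12 in the authors' deposited table. Pim1, a related kinase, stood at 0.49 (q = 0.289) and Socs3, a feedback inhibitor of G-CSF receptor signalling, at 0.64 (q = 0.343) in the authors' deposited table, while the STAT5 target Cish stood at -0.18 (q = 0.994). Of 11 measured GM-CSF-induced macrophage genes, 1 rose, the scavenger receptor Marco (2.23, q = 0.0485), and 1 fell, the transcription factor Bhlhe40 (-0.82, q = 0.0480), with a median of 0.02 in the authors' deposited table. Pparg, a nuclear receptor that GM-CSF induces in alveolar macrophages, stood at -0.06 (q = 0.993) there. Of 14 M-CSF growth-response genes, none passed (median -0.13), and the 3 with the smallest p-values were Ets2 (0.45, q = 0.237), Fos (0.38, q = 0.278) and Jun (-0.36, q = 0.285), all encoding transcription factors, in the authors' deposited table.

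**Figure D5:**
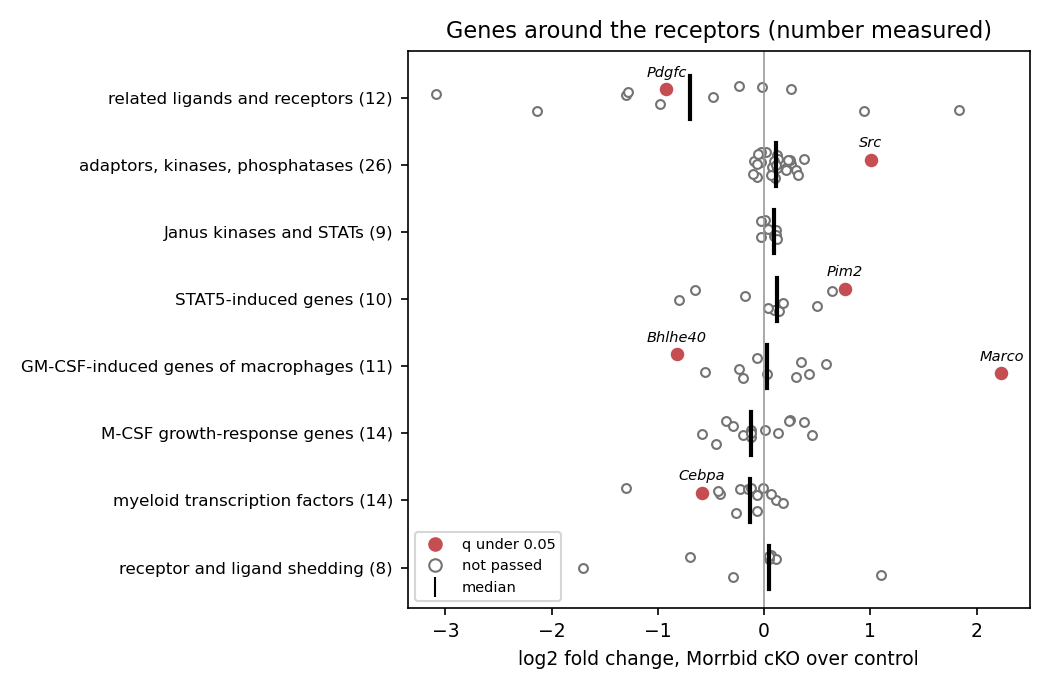
Log2 fold change, cKO over control, of genes related to the receptors in 8 lists, 1 point per measured gene, filled and named at q under 0.05, with the median of each list as a bar. Of the named genes, Src, Pim2 and Marco lie above 0 and Pdgfc, Bhlhe40 and Cebpa below, and every list median lies between -0.70 and 0.12.

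Of 14 transcription factors that control myeloid receptor genes, 1 fell and none rose (7.14%, against 1.72% of all genes) in the authors' deposited table. Their median was -0.14, and 11 ratios lay below 0, where 52.3% of all genes lay. Cebpa, which in the mouse is needed for granulocyte formation and for Csf3r expression, fell by 0.58 on the log2 scale (q = 0.0202) in the authors' deposited table, while Csf3r stood at 0.16. Spi1, which encodes PU.1, a main activator of Csf1r and Csf2ra, stood at 0.11 (q = 0.894) and Irf8, a factor of the monocyte lineage, at -0.23 (q = 0.411) in the authors' deposited table. M-CSF and stem cell factor are also released from the cell surface by proteases, and several of these receptors are shed. Of 8 genes of shedding none passed in the authors' deposited table. Their ratios ran from -1.71 to 1.10, with 5 above 0 and 3 below. Adam17, the main sheddase of CSF1R, stood at 0.07 (q = 0.993) with an implied SE of 0.088, in the authors' deposited table. The smallest p-values were those of Adam10, a related protease (-0.29, q = 0.0804), Timp3 (-1.71, q = 0.178) and Rhbdf1 (-0.70, q = 0.431), in the authors' deposited table.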

How the data were processed

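RNA sequencing of macrophages from 6 samples, 3 of each genotype, was compared by the authors. Per the file headers, the authors deposited for each gene the log2 fold change of Morrbid cKO over WT, its p-value and its q-value. The submitters' processing notes name DESeq2 1.4.5, RSEM 1.3.1, Bowtie2 and build mm9 with no role or order; scaling and filters are not given in the sources used here. Groups followed the genotype labels.

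No values per library were at hand, so planned fits on such values were replaced by the deposited q-values over all 16138 genes, adjusted by Benjamini-Hochberg. The implied standard error is the absolute log2 fold change divided by the normal quantile of the two-sided p-value, and the change needed to pass is that error times 3.33, the quantile of the largest passing p. The code for the adjustment and the standard error was checked on simulated data drawn from a normal distribution. Because the same normal formula made and recovered the errors, the check cannot show that the deposited p-values came from a Wald-type test. Planned protein alignments were replaced by coding sequences (Biopython 1.88). Of the Gene IDs, 16026 were found in RefSeq's GRCm38 annotation, used for names and gene order. Computations used SciPy 1.17.1, NumPy 2.4.6, pandas 2.3.3 and Python 3.11.15, and figures matplotlib 3.10.9.

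The 10 genes, the lists and the motifs were chosen with earlier results of these data known. Named genes were the 10 members, each list gene at q under 0.05 and up to 3 others of a list with the smallest p. Other list and neighbouring genes that did not pass were named for their role after their values were seen.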

Additional observations from a re-analysis of the deposited data

How the results depend on the processing

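No paired analysis was possible because only a single ratio of the genotypes was at hand for each gene; fits that leave out a replicate, other scalings and filters on low values were not run for the same reason. With a Holm adjustment over all genes, 0 of the 10 genes passed, where 3 had an unadjusted p under 0.05; Csf1 came nearest, with a Holm-adjusted p of 0.114. At a q under 0.01, 2 genes passed, without Kitl, and with a log2 fold change of at least 1 in size, 2 passed, without Csf2ra. Benjamini-Hochberg adjustment over mRNA genes alone, or over the 12407 genes whose implied standard error did not exceed 1, called Csf1, Csf2ra and Kitl, 3 genes each time. Over the latter genes, 6 pathway genes were called, as before, and 10 markers in place of 8, with Cxcl12 and Tagln added. Precision limits Kit and Flt3 most.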
